A study of Homo sapiens and Mus musculus with 69 samples.

Results

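The 10 genes described here encode the machinery that makes peptides and loads them onto MHC class I molecules in small cell lung cancer (SCLC) cells. They were chosen by name: the immunoproteasome subunits *PSMB8*, *PSMB9* and *PSMB10*, the peptide transporter genes *TAP1* and *TAP2*, the loading factors *TAPBP*, *CALR* and *PDIA3*, and the trimming peptidases *ERAP1* and *ERAP2*. All 10 had a row among the 20516 genes of the human table, and 8 had a row among the 18501 genes of the table of the mouse line KP1, where *Psmb9* and *Erap2* were not analysed here. The 69 RNA-Seq libraries form 23 groups of 3, and the comparisons ask how these genes change when Notch signaling or its target REST is switched on.

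H82 (7 groups) and H524 (5 groups) are SCLC lines that express *NEUROD1*, and H69 (3 groups) is another SCLC line. Each was studied as parental cells and as cells with a lentiviral vector for doxycycline-inducible NOTCH1, of which the intracellular domain is made, without and with 1 μg/mL doxycycline in long-term culture. H82 NOTCH1 cells were also studied with REST KO and with STING KO, each without and with doxycycline, and H524 also carried an inducible REST vector. In COR-L88, a human SCLC line, the groups were DMSO, the LSD1 inhibitor TAS1440 (100 nM, which activates Notch signaling in these cells), TAS1440 with a γ-secretase inhibitor (GSI; BMS-708163, 2 μM) that blocks Notch receptor cleavage, and STING KO cells with DMSO or TAS1440. KP1, from a mouse SCLC with loss of *Rb1* and *Trp53*, had DMSO, TAS1440 (100 nM) and TAS1440 with GSI (DBZ, 10 μM). KO cells were made with lentiviral CRISPR-Cas9 and a single target sequence. Single-cell KO clones of each line were used for protein blots in the study, and whether the libraries came from 1 or more of these clones is not given in the sources used here. For the inducible lines the cells that had become adherent under doxycycline were collected, so that doxycycline and the choice of adherent cells cannot be told apart. The labels do not say that the 3 libraries of a group came from separate cultures, and *P* values therefore measure the spread between libraries, which may be technical.

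Proteasomes cut cytosolic proteins with 3 catalytic subunits encoded by *PSMB5*, *PSMB6* and *PSMB7*. In the immunoproteasome, which interferons induce, PSMB8 replaces PSMB5, PSMB9 replaces PSMB6 and PSMB10 replaces PSMB7, which alters the peptides produced. TAP1 and TAP2 form the transporter that brings peptides into the endoplasmic reticulum, where tapasin (*TAPBP*), calreticulin (*CALR*) and the oxidoreductase ERp57 (*PDIA3*) hold empty class I molecules next to it. ERAP1 and ERAP2 trim the amino ends of peptides to the length that class I molecules bind. Low expression of this machinery is a known feature of neuroendocrine SCLC.

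In the GRCh37 annotation 5 of the genes lie on chromosome 6 within a 492.5 kb stretch of the MHC. *TAP2* (chr6:32789610-32806516), *PSMB8* (chr6:32808494-32812456), *TAP1* (chr6:32812986-32821593) and *TAPBP* (chr6:33267471-33282061) are on the minus strand. *PSMB9* (chr6:32811913-32827628) is on the plus strand, and its span in this annotation overlaps *PSMB8* by 544 bases and the whole of *TAP1*. The RefSeq start of *PSMB9* used below faces away from *TAP1*, so a transcript from that start does not overlap *TAP1*. Which annotation the counting used is not given in the sources used here. The kit keeps strand, but the strand setting of the counting is not given in the sources used here, so reads of the overlapping parts may have been split between these genes. *ERAP1* and *ERAP2* are neighbours on chromosome 5, *PSMB10* is on chromosome 16, *CALR* on chromosome 19 and *PDIA3* on chromosome 15.

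The start sites of *PSMB9* and *TAP1* face away from each other, 488 bases apart for the *TAP1* start nearest to *PSMB9*, and the 2 genes moved together in these data. Promoter sequences from 250 bases before to 50 bases after a start were taken from RefSeq on GRCh38.p14, which gave 13 windows for 9 of the 10 members. They were searched on both strands for the interferon-stimulated response element (ISRE; letters GAAANNGAAA), the gamma-activated site (GAS; TTCNNNGAA), the core of the RBPJ site through which Notch acts (TGGGAA) and an NF-κB site (GGGANTTTCC). Shown are *PSMB9* (chr6:32853942-32854241, plus strand), *TAP1* (chr6:32853655-32853954, minus strand) and *TAPBP* (chr6:33314029-33314328, minus strand), as genes that rose in every human line, *PSMB10* (chr16:67936801-67937100, minus strand), whose direction differed between lines, and *CALR* (chr19:12938359-12938658, plus strand), which fell in H82. Each is written from 5′ to 3′ on the strand of its gene, and capitals mark the motif letters found.
PSMB9: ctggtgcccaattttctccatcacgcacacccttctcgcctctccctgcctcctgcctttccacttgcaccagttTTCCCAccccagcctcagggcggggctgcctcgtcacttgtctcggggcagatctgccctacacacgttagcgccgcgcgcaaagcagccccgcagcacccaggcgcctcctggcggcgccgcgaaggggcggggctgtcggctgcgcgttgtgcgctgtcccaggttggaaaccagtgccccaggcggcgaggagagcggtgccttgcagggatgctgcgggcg
TAP1: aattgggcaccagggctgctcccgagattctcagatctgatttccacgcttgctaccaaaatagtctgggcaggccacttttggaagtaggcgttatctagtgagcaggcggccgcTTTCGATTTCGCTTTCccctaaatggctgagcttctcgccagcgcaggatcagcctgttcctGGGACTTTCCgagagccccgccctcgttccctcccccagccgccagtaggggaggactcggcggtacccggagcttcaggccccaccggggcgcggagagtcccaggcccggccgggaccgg
TAPBP: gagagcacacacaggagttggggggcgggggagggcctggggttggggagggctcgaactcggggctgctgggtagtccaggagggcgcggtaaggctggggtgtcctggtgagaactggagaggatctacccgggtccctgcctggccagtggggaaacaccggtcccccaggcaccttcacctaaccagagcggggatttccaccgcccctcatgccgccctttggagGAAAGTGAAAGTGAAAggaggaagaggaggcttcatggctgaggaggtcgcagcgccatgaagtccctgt
PSMB10: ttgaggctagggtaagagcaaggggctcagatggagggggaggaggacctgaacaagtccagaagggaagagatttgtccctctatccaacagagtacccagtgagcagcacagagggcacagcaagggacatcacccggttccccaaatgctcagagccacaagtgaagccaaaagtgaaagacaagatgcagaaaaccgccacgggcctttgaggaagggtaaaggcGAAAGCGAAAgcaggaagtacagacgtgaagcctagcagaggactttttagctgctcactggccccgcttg
CALR: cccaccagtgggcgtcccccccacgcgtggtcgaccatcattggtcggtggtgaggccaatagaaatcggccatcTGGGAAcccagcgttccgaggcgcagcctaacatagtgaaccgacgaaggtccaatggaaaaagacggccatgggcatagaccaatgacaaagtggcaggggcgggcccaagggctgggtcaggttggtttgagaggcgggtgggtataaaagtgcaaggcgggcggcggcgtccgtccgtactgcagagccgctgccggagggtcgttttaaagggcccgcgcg
The ISRE letters were found in 7 of the 13 windows, 1 each for *PSMB8*, *PSMB10*, *TAP1*, *TAP2*, *TAPBP*, *ERAP1* and *ERAP2*, against 3.57% of all 35116 windows of the table. In *TAP1* and *TAPBP* 2 ISRE matches overlap. The NF-κB letters were found in 1 member window, that of *TAP1* printed above, against 0.558% of all windows, and the GAS letters in 2, against 7.66%. The RBPJ core was found in 3 member windows, those of *PSMB9* and *CALR* and the other *TAP1* window, where it overlaps a GAS match, against 24% of all windows. These matches describe letters and not binding.

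The deposited values are log2(RPKM + 1), where RPKM is reads scaled to the length of the gene and to the size of the library, normalized between libraries. Every level and log2 fold change below uses it, and for genes near 0 it gives too small a change. A gene was tested by limma if 3 or more libraries of its line had a log2 value of at least 1, and it was called at an adjusted *P* under 0.05 over all genes tested. Shares of all genes called count both directions unless stated. Groups are said not to overlap where every library of 1 lay above or below every library of the other. How often this holds over all genes is not given here, so it is a description and no test. Library sizes estimated from the lowest values were 0.697 to 1.52 times the median for the human lines and 0.869 to 1.07 times for KP1. The neuroendocrine markers *NEUROD1*, *INSM1*, *CHGA*, *SYP* and *NCAM1* were summed over their log2 means, and this sum was 26.6 to 39 in untreated human groups. With NOTCH1 it was 8.81 in H82, 5.46 in H69 and 27.5 in H524, and with TAS1440 it was 12.9 in COR-L88. The uninduced H69 NOTCH1 cells differed from the line they came from: *NEUROD1* was 9.39 ± 1.06 (SD, n = 3) in them and 4.37 ± 0.93 in parental cells. H69 results are therefore also given with parental cells as the control, an alternative chosen after seeing the data. Of the leukocyte markers in the human table, *PTPRC*, *CD3E* and *LYZ* stayed at or below 0.379 in every library, and *CD14* reached 4.88, with group means of 0.974 without and 1.49 with NOTCH1 in H82, 3.29 and 4.15 in H524, 3.28 and 4.79 in H69, and 2.02 with DMSO and 1.11 with TAS1440 in COR-L88. The part of *CD14*-positive cells in the results was not tested. In bulk RNA, fewer cells that express a gene and less of its RNA in each cell cannot be told apart.

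With NOTCH1 or TAS1440, *PSMB9* had the largest difference in log2(RPKM + 1) of the 10 genes in each of the 4 human lines, and *PSMB8*, *TAP1*, *TAP2*, *TAPBP* and *ERAP1* rose in every one of them. Of the 9 members tested in H82, 6 rose with NOTCH1 and 3 (*PSMB10*, *CALR*, *PDIA3*) fell, where 50.3% of all 13903 genes tested were called. In H524, 6 of 9 rose and none fell, against 32.3% called of 13648 genes. In H69, all 10 rose, against 82.3% of 13580, and all 10 also rose with parental cells as the control, against 81.2%. Without any 1 of the 3 induced H69 libraries, 3 members no longer met the filter and the 7 still tested were called. In COR-L88, TAS1440 raised 9 of 9, against 57.7% of 13134. The shares of all genes called higher were 25.4% in H82, 17.9% in H524 and 31.1% in COR-L88. In H69 this share was 44.1%, or 42.6% with parental cells as the control. The median log2 fold change of the members tested was 1.45, 1.64, 2.00 and 1.92 in H82, H524, H69 and COR-L88, where the medians of all genes tested were -0.00264, -0.0181, 0.0827 and 0.00797. The test took genes at 1 or more in at least 3 libraries of a line, and some members met this only through the treated groups, so their rise is in part set by that choice. These were *PSMB8*, *PSMB9* and *TAP1* in H82, *PSMB8*, *PSMB9*, *TAP1* and *TAP2* in H69, and *PSMB9*, *TAP1* and *TAP2* in COR-L88. *ERAP2* reached the test in H69 alone. The order of the genes depends on the scale, since in mean RPKM *PSMB8* went from 0.0199 to 12.1 in H82 and *PSMB9* from 0.354 to 58.3, and the ratio was the larger one for *PSMB8*.

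**Figure D1:**
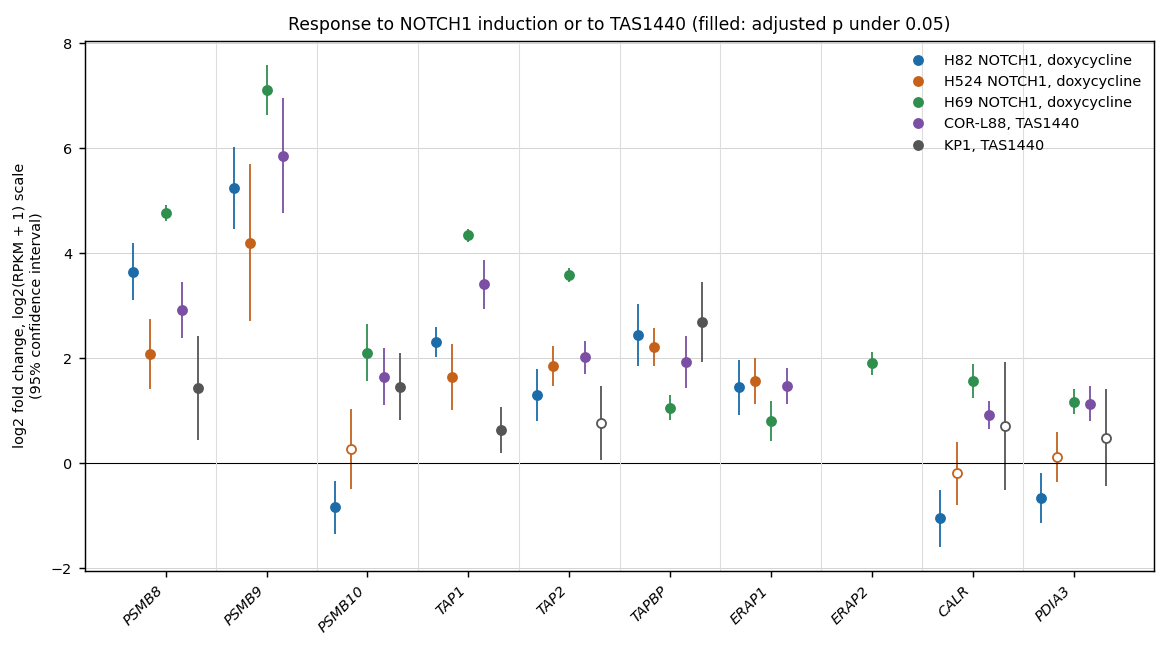
Log2 fold change of each member on the log2(RPKM + 1) scale with its 95% confidence interval, for NOTCH1 with against without doxycycline in H82, H524 and H69 and for TAS1440 against DMSO in COR-L88 and KP1; filled points have an adjusted P under 0.05. On this scale PSMB9 stands highest in each human line, from 4.20 in H524 to 7.11 in H69, and CALR and PDIA3 were called lower in H82 alone.

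The immunoproteasome subunit genes *PSMB8* and *PSMB9* were at or near 0 in uninduced H82. *PSMB9* was 0.43, 0.43 and 0.45 without and 5.02, 6.74 and 5.25 with doxycycline in H82 NOTCH1 cells (log2 fold change 5.24 ± 0.37 SE, n = 3, limma adjusted *P* = 2.59e-09). *PSMB8* was 0.00, 0.00 and 0.08 without and 3.45, 4.16 and 3.42 with it (3.65 ± 0.26, adjusted *P* = 2.6e-09). Every induced library lay above every uninduced one for both genes. In H524, *PSMB9* was 0.49, 4.32 and 2.17 without and 5.97, 6.46 and 7.14 with doxycycline (4.20 ± 0.70, limma adjusted *P* = 0.000362). The second uninduced H524 library, library 23, stood apart with the highest *PSMB9*, *PSMB8* (2.67 against 1.16 and 1.92) and *TAP1* (2.30) of its group, and its *STING1* RNA (listed as *TMEM173*) was 3.25 against 0.45 and 1.43. Without library 23 the rise of *PSMB9* was 5.19 and that of *PSMB8*, 2.08 ± 0.31 with all libraries, was 2.45.

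In H69, *PSMB9* went from 0.00, 0.61 and 0.00 to 7.38, 7.21 and 7.36 (7.11 ± 0.21, limma adjusted *P* = 6.77e-09). *PSMB8* was listed at 0 in all 3 uninduced H69 libraries and was 4.80, 4.74 and 4.73 with doxycycline, so no fold is given. Against parental H69 cells the rise was 6.60 ± 0.21 for *PSMB9* and 4.40 ± 0.07 for *PSMB8*. In COR-L88, *PSMB9* was 1.43, 0.56 and 0.41 with DMSO and 6.05, 6.71 and 7.20 with TAS1440 (5.86 ± 0.51, adjusted *P* = 5.49e-07). *PSMB8* was already 1.88, 1.04 and 1.18 with DMSO there and reached 4.06, 4.28 and 4.53 (2.92 ± 0.25, adjusted *P* = 4.25e-07). In each of these pairs the groups did not overlap.

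*PSMB10*, the third inducible subunit, differed from the other two in level and in direction. It was between 6.39 and 10.60 in every human library, including untreated ones. In H82 it was 10.32, 9.83 and 9.71 without and 8.85, 9.48 and 9.00 with doxycycline, a fall by 0.84 ± 0.24 (limma adjusted *P* = 0.00655), and the groups did not overlap. In H524 it was 10.03, 9.47 and 9.66 without and 9.68, 9.98 and 10.31 with NOTCH1, and the groups overlapped (0.27 ± 0.35, adjusted *P* = 0.602). It rose in H69, from 7.01, 6.39 and 6.96 to 8.96, 8.45 and 9.25 (2.10 ± 0.24, adjusted *P* = 3.64e-05), and in COR-L88, from 8.57, 8.35 and 8.43 to 9.67, 10.02 and 10.60 (1.65 ± 0.25, adjusted *P* = 8.79e-05). Uninduced H69 had the lowest *PSMB10* of the 20 human groups.

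**Figure D2:**
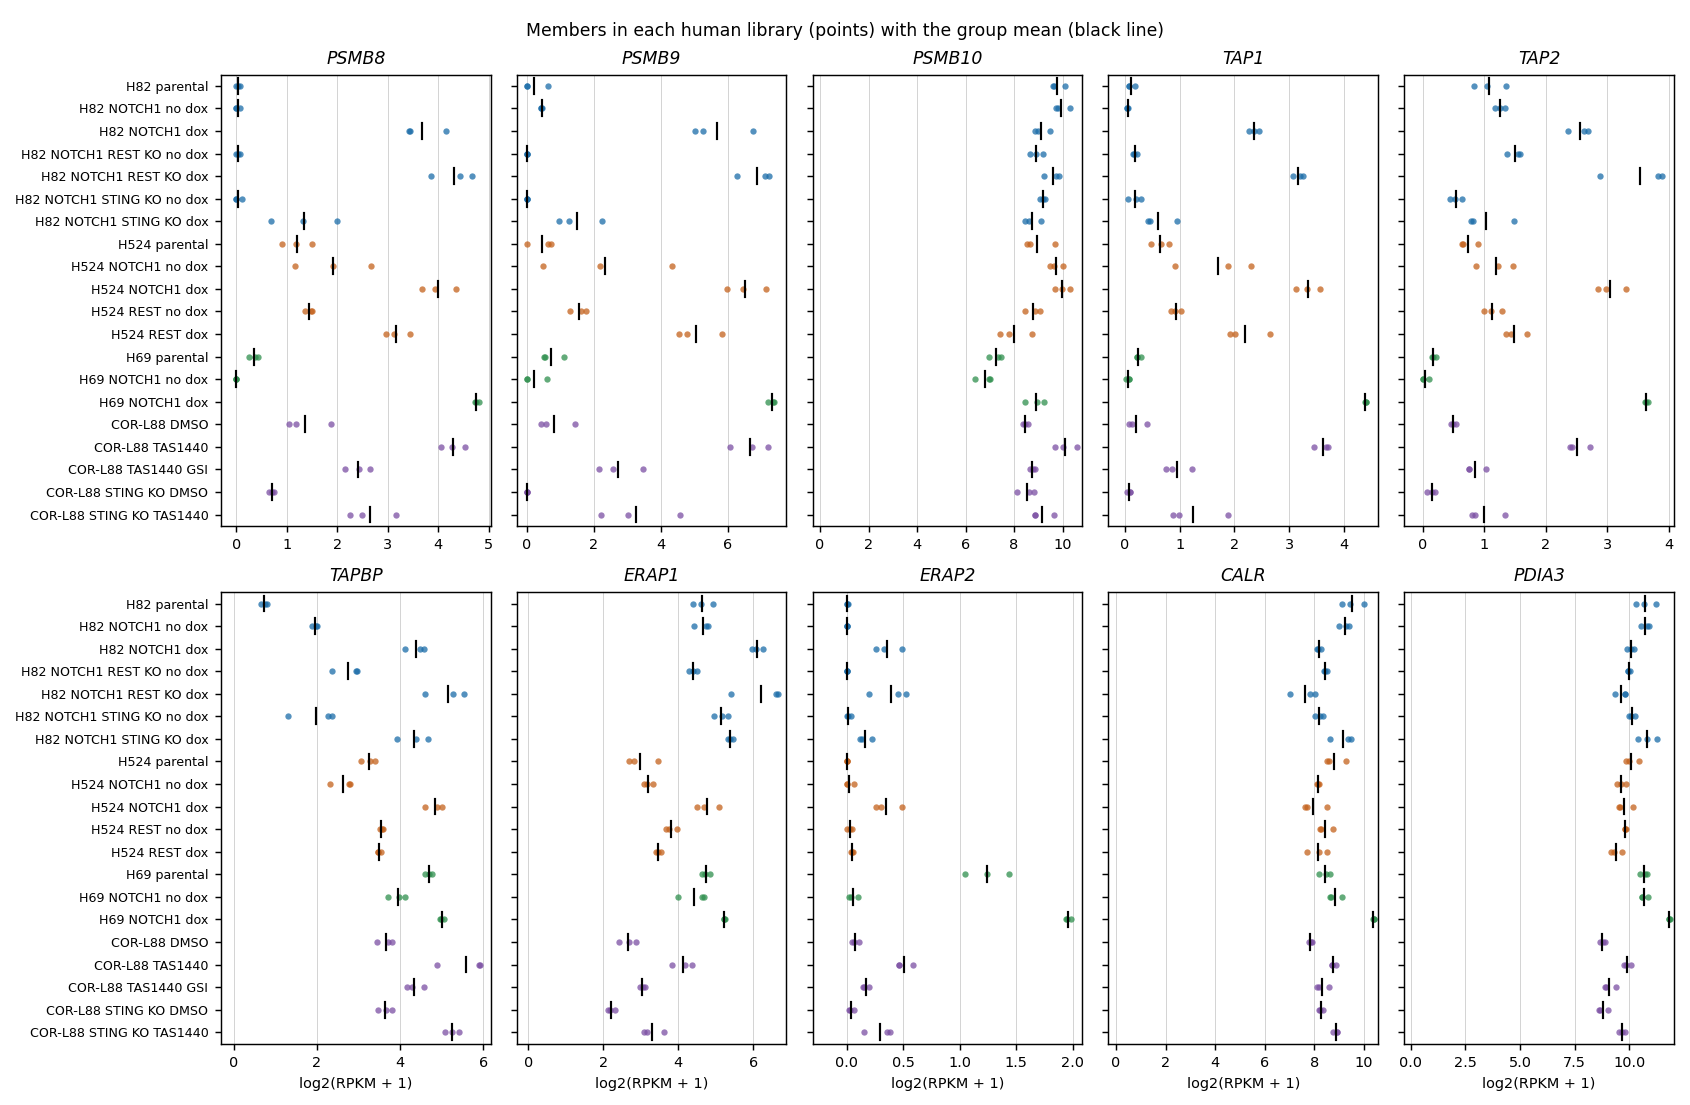
Level of each member, in log2(RPKM + 1), in the 60 human libraries; each row is a group, colored by line, each point a library and each black line a group mean. PSMB9 spans 0 to 7.38 and PSMB10 6.39 to 10.60, while CALR and PDIA3 are high in every library.

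The constitutive counterparts moved in different directions in the 4 lines. In H82 *PSMB5* fell by 0.99 and *PSMB6* by 1.03. In H524 *PSMB5* fell by 0.82, and *PSMB6* (-0.59) and *PSMB7* (-0.45) were not called. In H69, where *PSMB8* and *PSMB9* also rose, *PSMB5* rose by 0.39, *PSMB6* by 1.36 and *PSMB7* by 0.53. In COR-L88 with TAS1440 the changes were 0.02, -0.29 and 0.11, with no limma call and no unadjusted *P* under 0.05. As a share of its counterpart's RPKM, *PSMB8* went from 0.00279% ± 0.00483 (SD, n = 3) to 2.85% ± 0.275 of *PSMB5* in H82 and from 0.335% ± 0.0963 to 3.95% ± 0.768 in COR-L88. *PSMB9* went from 0.0262% ± 0.0042 to 8.19% ± 4.39 of *PSMB6* in H82, and reached 31.6% ± 9.86 in H524, 29.1% ± 1.55 in H69 and 48.9% ± 19.8 in COR-L88. *PSMB10* fell from 53.1% ± 3.9 to 39.8% ± 4.9 of *PSMB7* in H82 and rose from 12.6% ± 2.84 to 38.1% ± 10.9 in H69. The gene lengths behind the RPKM values are not given in the sources used here, so the shares are read as changes and not as the makeup of proteasomes.

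**Figure D3:**
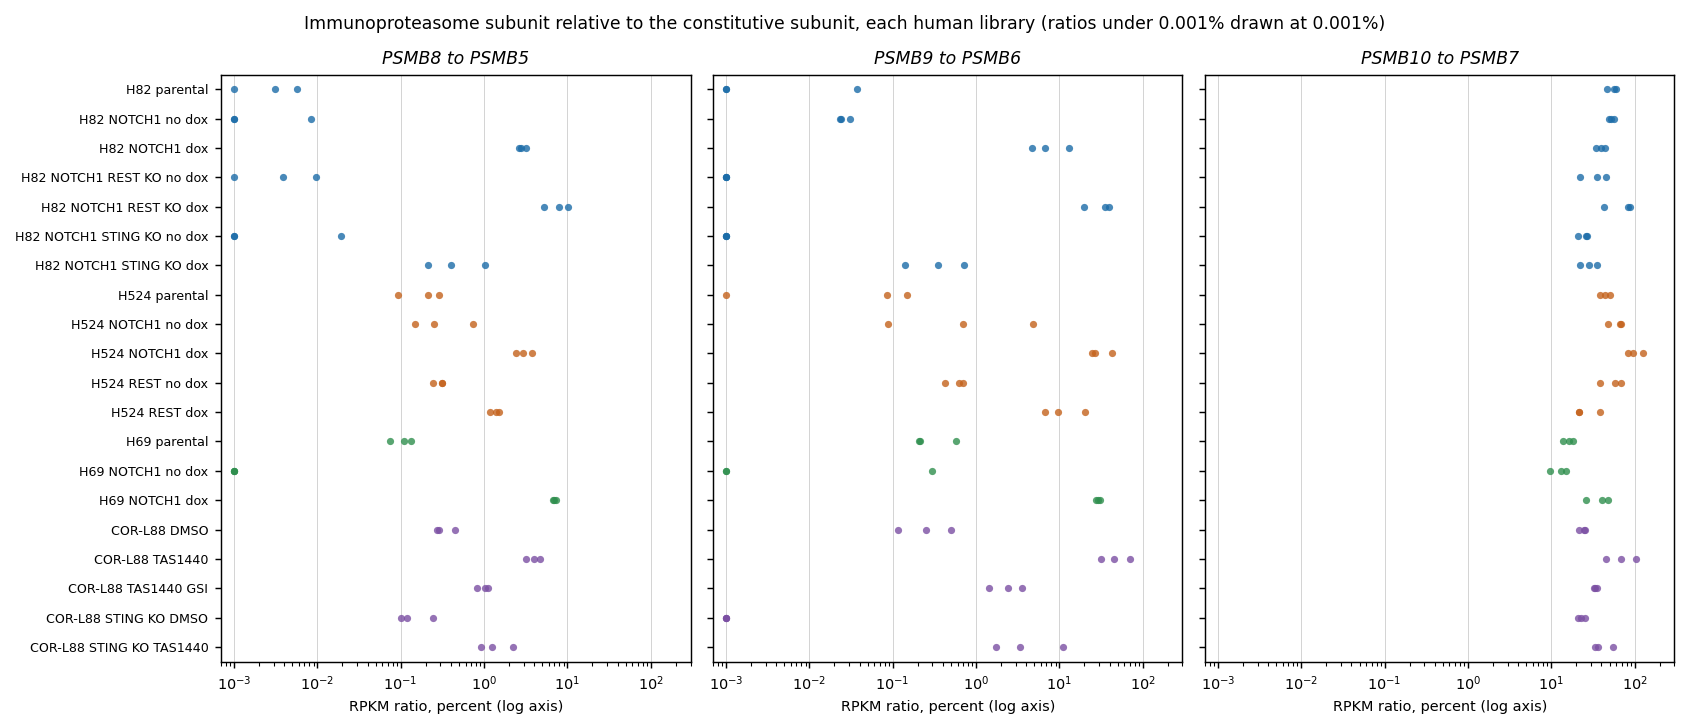
RPKM of PSMB8, PSMB9 and PSMB10 as a percent of PSMB5, PSMB6 and PSMB7 in each human library (log axis; ratios under 0.001% are drawn at 0.001%). The PSMB8 share rises from 0.00279% to 2.85% in H82 with NOTCH1, whereas the PSMB10 share moves between 12.6% and 101% over all group means.

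The transporter genes rose together. In H82, *TAP1* was 0.06, 0.04 and 0.05 without and 2.45, 2.26 and 2.35 with doxycycline (2.31 ± 0.13, limma adjusted *P* = 1.79e-10). In H69 it went from 0.07, 0.02 and 0.07 to 4.38, 4.40 and 4.40 (4.34 ± 0.05, adjusted *P* = 6.89e-11), the highest group mean of *TAP1* in the series. In COR-L88 it went from 0.41, 0.13 and 0.08 to 3.72, 3.45 and 3.67 (3.40 ± 0.22, adjusted *P* = 4.28e-08). None of these groups overlapped. In H524, uninduced cells already had 0.91, 2.30 and 1.88, of which 2.30 is library 23, and induced cells had 3.12, 3.33 and 3.56 (1.64 ± 0.29, adjusted *P* = 0.000695; 1.94 without library 23).

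*TAP2* began higher than *TAP1* in H82, at 1.26, 1.18 and 1.34, and rose less, to 2.69, 2.36 and 2.62 (1.30 ± 0.23, limma adjusted *P* = 0.000165). In H69 it went from 0.11, 0.01 and 0.00 to 3.65, 3.61 and 3.63 (3.59 ± 0.06, adjusted *P* = 2.59e-10). The rise was 1.85 ± 0.18 in H524 and 2.01 ± 0.15 in COR-L88. Induced and uninduced libraries did not overlap in any of these lines.

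Of the loading factors, *TAPBP*, the bridge between class I molecules and the transporter, was well above 0 before induction in every line. It went from 1.88, 2.01 and 1.98 to 4.57, 4.11 and 4.49 in H82 (2.43 ± 0.28, limma adjusted *P* = 1.19e-06). In H524 it went from 2.31, 2.78 and 2.80 to 4.59, 4.90 and 5.02 (2.21 ± 0.17, adjusted *P* = 2.2e-07). The rise was 1.06 ± 0.10 in H69, where the uninduced values of 3.72, 3.98 and 4.13 were higher, and 1.92 ± 0.23 in COR-L88. Against parental H69 cells, at 4.69, 4.60 and 4.77, it was 0.31 ± 0.10 (limma adjusted *P* = 0.0193). Groups with and without treatment did not overlap in any of the 4 lines.

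*CALR* and *PDIA3* are chaperones that fold many glycoproteins besides class I molecules. They fell in H82, where *PSMB9* and *TAP1* rose, and rose with them in H69 and COR-L88. In H82, *CALR* was 9.27, 9.38 and 9.00 without and 8.26, 8.16 and 8.09 with doxycycline, a fall by 1.05 ± 0.26 (limma adjusted *P* = 0.00262), and *PDIA3* fell by 0.67 ± 0.23 (adjusted *P* = 0.0209). The fall of *PDIA3* was no longer called without library 5 (adjusted *P* = 0.0748) or library 8 (0.0642). In H524 neither was called, with -0.19 ± 0.28 for *CALR* and 0.12 ± 0.22 for *PDIA3*, and the groups overlapped. In H69, *CALR* rose from 9.11, 8.65 and 8.68 to 10.40, 10.39 and 10.35 (1.57 ± 0.14, adjusted *P* = 9.6e-06) and *PDIA3* by 1.17 ± 0.10, and against parental cells by 1.94 ± 0.14 and 1.16 ± 0.10. With TAS1440 in COR-L88 they rose by 0.92 ± 0.12 and 1.13 ± 0.16, again without overlap.

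The trimming peptidase *ERAP1* was expressed before induction, at 4.74, 4.80 and 4.42 in H82, and rose to 6.26, 5.97 and 6.07 (1.45 ± 0.25, limma adjusted *P* = 0.000103). It rose by 1.57 ± 0.21 in H524, 0.80 ± 0.17 in H69 and 1.47 ± 0.16 in COR-L88, and the groups did not overlap. *ERAP2* was tested in H69, where parental cells had 1.04, 1.24 and 1.44, uninduced NOTCH1 cells 0.04, 0.02 and 0.10 and induced cells 1.95, 1.94 and 1.99 (1.90 ± 0.10, adjusted *P* = 1.84e-07). Against parental cells the *ERAP2* rise was 0.72 ± 0.10 and that of *ERAP1* 0.50 ± 0.17. In H82, H524 and COR-L88 no library exceeded 0.59.

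How the lines differed was tested in 1 model of H82, H524 and H69. The response of H69 differed from that of H82 in 9 of 10 members, where 59.3% of 15439 genes were called. *PSMB10* (2.94 ± 0.42), *CALR* (2.62 ± 0.36), *TAP2* (2.29 ± 0.27), *TAP1* (2.03 ± 0.28), *PSMB9* (1.87 ± 0.74), *PDIA3* (1.84 ± 0.29), *ERAP2* (1.55 ± 0.11) and *PSMB8* (1.11 ± 0.37) had the more positive change in H69. For *PSMB8*, *TAP1* and *ERAP2*, at or near 0 in the uninduced cells of both lines, this difference reflects the induced levels alone and is no ratio of folds. Uninduced means were also low for *PSMB9*, at 0.20 in H69 and 0.44 in H82. For *TAP2* they were 0.04 in H69 and 1.26 in H82. The rise of *TAPBP* was smaller there (-1.38 ± 0.31), and *ERAP1* was not called (-0.65 ± 0.32, limma adjusted *P* = 0.0786). The difference in *PSMB9* was no longer called without library 7, 9, 49 or 51 (differences of 1.55, 1.66, 1.77 and 1.77). With parental H69 cells as the control, 8 of 10 members differed, against 58.5% of genes: *PSMB8* (0.75 ± 0.37) and *PSMB9* (1.36 ± 0.74) were then not called, *ERAP1* was (-0.95 ± 0.32), *TAPBP* was -2.12 ± 0.31 and *ERAP2* was 0.36 ± 0.11. The H524 response differed from that of H82 in 3 of 10 members, near the 29.5% of genes called: *PSMB8* rose less (-1.57 ± 0.37), and the change of *PSMB10* (1.12 ± 0.42) and *PDIA3* (0.79 ± 0.29) was more positive. Without library 23 *PSMB8* alone stayed called, with -1.19, and *PSMB10* had an adjusted *P* of 0.0889. *PSMB8* alone also stayed called without library 4, 5, 9 or 24, and 5 members were called without library 22.

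The uninduced vector lines were not identical to the parental cells. In H82, 1 of 9 members was called, against 13.7% of genes: *TAPBP* was 0.80, 0.74 and 0.66 in parental and 1.88, 2.01 and 1.98 in uninduced NOTCH1 cells (1.22 ± 0.28, limma adjusted *P* = 0.0071), without overlap. In H524, the NOTCH1 line had 2 called, against 26.6%: *TAP1* was higher by 1.05 ± 0.29 and *TAPBP* fell by 0.62 ± 0.17 relative to parental cells. Without library 23 *TAP1* was higher by 0.751 and no longer called (adjusted *P* = 0.0559), nor was it without library 20 or 24, and *TAPBP* was not called without library 19 or 22. The H524 REST line had none of 9 called, against 0.300% of genes, and 2 had an unadjusted limma *P* under 0.05. In H69, 4 of 10 were lower in the uninduced line, against 27.4%: *ERAP2* by 1.19 ± 0.10, *TAPBP* by 0.74 ± 0.10, *PSMB8* by 0.35 ± 0.07 and *TAP1* by 0.19 ± 0.05. *PSMB8* and *TAP1* met the filter here only through the induced libraries. The *ERAP2* groups did not overlap, and *TAP1* was not called without library 46, 47, 48, 50 or 51.

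Whether the response needs REST was asked with REST KO in H82 NOTCH1 cells. *REST* RNA was 4.95, 4.95 and 5.89 in the libraries labelled REST KO with doxycycline and 6.48, 6.13 and 6.33 without KO, so RNA was lower but present, and it does not measure the protein. *NOTCH1* RNA with doxycycline was 8.75, 9.15 and 10.74 in REST KO and 4.75, 4.26 and 5.56 without KO, and the neuroendocrine marker sum was 20.1 and 8.81. NOTCH1 RNA and the KO cannot be told apart here. In REST KO cells doxycycline raised 7 of 9 members and lowered *CALR*, against 52.2% of genes called. *CD14* rose in the same cells, from 0.52, 0.00 and 0.30 to 1.88, 2.23 and 1.77 (1.69 ± 0.31, limma adjusted *P* = 0.000217), and its part was not tested. *TAP1* rose from 0.17, 0.22 and 0.14 to 3.25, 3.20 and 3.07 (2.99 ± 0.13, limma adjusted *P* = 4.02e-12). *PSMB9* was listed at 0 in all 3 uninduced REST KO libraries and was 7.22, 7.10 and 6.26 with doxycycline. *PSMB10* rose, from 9.21, 8.89 and 8.64 to 9.72, 9.87 and 9.25 (0.70 ± 0.24, adjusted *P* = 0.0199), where it had fallen without KO; leaving out library 29, 30, 31 or 32 ended this call, with values of 0.56 to 0.685. The fall of *CALR*, 0.82 ± 0.26, was not called without library 33 (-0.519), whose *CALR* (7.03) and *ERAP1* (5.39) were the lowest of the group.

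Compared directly with doxycycline, 4 of 9 members were higher in REST KO than without KO and none lower, against 38.4% of genes: *PSMB9* (1.18 ± 0.37), *TAP2* (0.97 ± 0.23), *TAP1* (0.81 ± 0.13) and *TAPBP* (0.75 ± 0.28). The *PSMB9* and *TAPBP* calls were lost without library 7, 9, 31 or 32, and 2 members were then called. Without library 33, 7 were called. Without doxycycline, REST KO lowered 2 of 9, against 15.2%: *PSMB10* by 1.04 ± 0.24 and *PDIA3* by 0.76 ± 0.23, and *PDIA3* was not called without library 4, 5, 28, 29 or 30 (-0.684 to -0.788). The response to doxycycline itself was larger in REST KO for 3 members, against 16.6%: *PSMB9* (1.62 ± 0.53), *PSMB10* (1.54 ± 0.34) and *TAP1* (0.68 ± 0.19). The *PSMB9* difference ran against a group listed at 0 and lost its call in 10 of the 12 leave-one-out fits. Without library 33, 5 members were called.

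The REST vector, induced in H524, raised part of the group. *REST* RNA was 5.05, 5.03 and 4.90 without and 6.87, 10.72 and 9.43 with doxycycline, and the neuroendocrine marker sum was 39 and 36.3. *NOTCH1* RNA rose in the same libraries, from 0.53, 0.46 and 0.49 to 1.41, 2.29 and 1.91 (limma adjusted *P* = 0.0144), and *TMEM173* was 1.80, 1.41 and 1.55 without and 2.71, 2.36 and 2.61 with doxycycline (not called, adjusted *P* = 0.315). Their part in the results was not tested. Of 9 members 3 rose, where 2.83% of genes were called. *PSMB9* went from 1.77, 1.61 and 1.29 to 5.82, 4.53 and 4.77 (3.48 ± 0.70, limma adjusted *P* = 0.0171). *PSMB8* went from 1.37, 1.50 and 1.48 to 3.45, 3.12 and 2.96 (1.73 ± 0.31, adjusted *P* = 0.0099), and *TAP1* from 1.03, 0.85 and 0.91 to 2.65, 1.91 and 2.01 (1.26 ± 0.29, adjusted *P* = 0.0368). The groups did not overlap for these 3 genes. Library 37, with the lowest *REST* RNA of the induced group (6.87), had the highest *PSMB9*, *PSMB8* and *TAP1*. *TAP2* (0.36 ± 0.18), *TAPBP* (-0.06 ± 0.17) and *ERAP1* (-0.34 ± 0.21), which rose with NOTCH1, were not called with REST. The *TAP1* call was lost without any of the 6 libraries (1.04 to 1.40), and that of *PSMB9* without library 35, 36, 37 or 39 (3.09 to 3.62).

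The test of the difference between the NOTCH1 and REST responses in H524 called *TAPBP* (2.26 ± 0.24, limma adjusted *P* = 1.3e-05), *ERAP1* (1.90 ± 0.29, adjusted *P* = 0.000375) and *TAP2* (1.49 ± 0.25, adjusted *P* = 0.000866), 3 of 9 members against 19.1% of genes. It did not call *PSMB8* (0.35 ± 0.44), *PSMB9* (0.71 ± 0.98) or *TAP1* (0.37 ± 0.42), whose standard errors leave room for differences of either sign. Between the induced lines, NOTCH1 was above REST in 6 of 9 members, against 42.8%, the difference being widest for *PSMB10* (2.00 ± 0.35), which was 7.79, 8.75 and 7.44 with REST. *PSMB8* (0.82 ± 0.31) was the weakest of these calls (adjusted *P* = 0.0477) and was lost without library 26, 27, 37, 38 or 39.

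**Figure D4:**
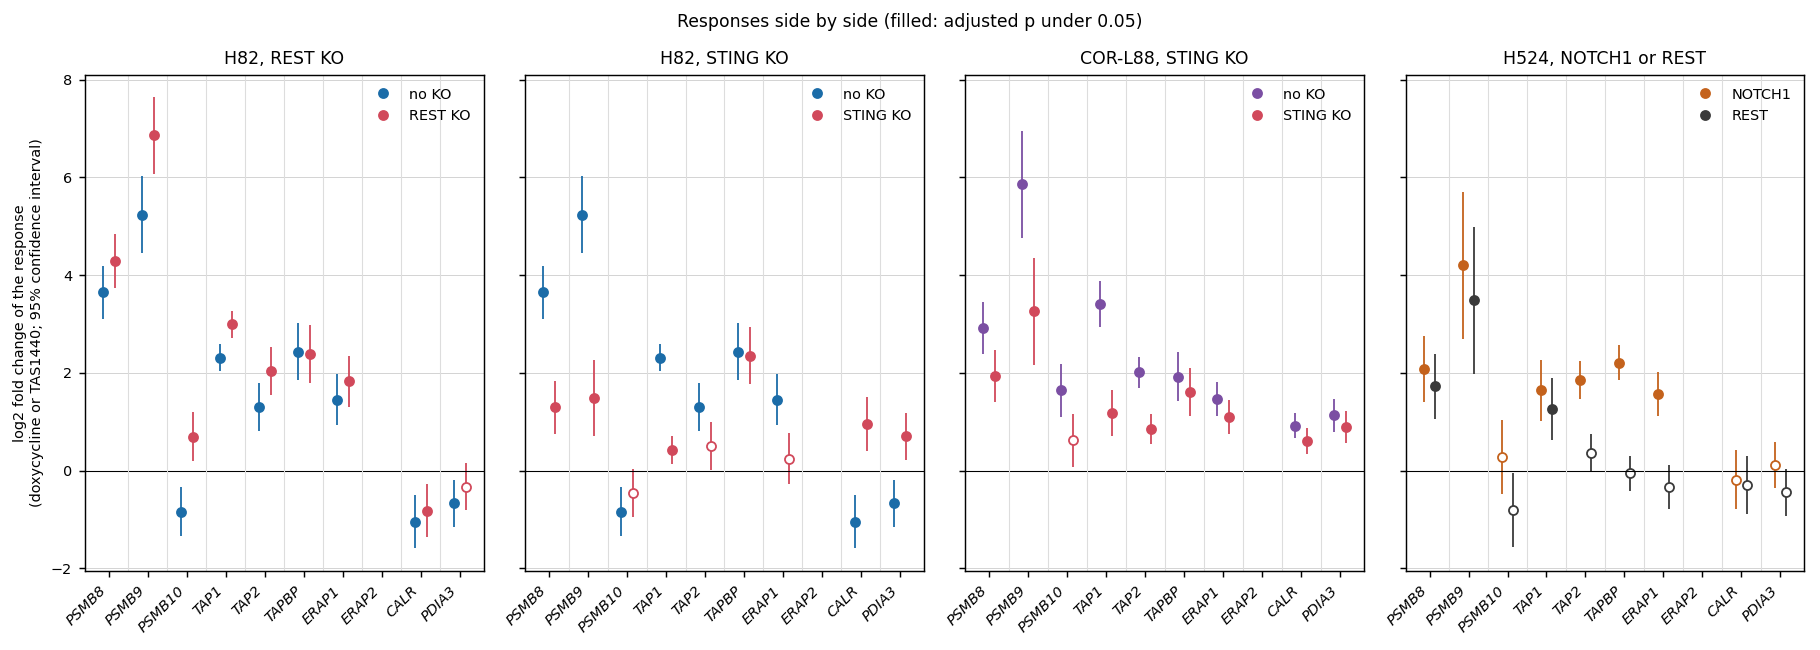
Log2 fold change of the response to doxycycline (H82, H524) or TAS1440 (COR-L88) for each member with its 95% confidence interval, side by side for cells without and with KO or for the NOTCH1 and REST vectors; filled points have an adjusted P under 0.05. In STING KO cells PSMB9 and TAP1 lie below the values without KO in both lines, while TAPBP is 2.35 against 2.43 in H82.

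STING, the adaptor of cytosolic DNA sensing, was targeted in H82 NOTCH1 cells. *TMEM173* RNA was 1.27, 1.53 and 2.04 with doxycycline in the libraries labelled STING KO and 1.07, 1.17 and 1.10 without KO, so the RNA does not show the KO. RNA does not measure the protein, and the study used protein blots of single-cell STING KO clones of this line. The neuroendocrine marker sum with doxycycline was 8.72 and 8.81. *NOTCH1* RNA was 5.97, 7.41 and 7.48 in those libraries against 4.75, 4.26 and 5.56. In the cells labelled STING KO, doxycycline raised 6 of 9 members, against 37.8% of genes. Of these, *PSMB8*, *PSMB9* and *TAP1* met the filter only through the induced H82 groups without STING KO. *CD14* was 1.74, 1.60 and 0.99 without and 2.36, 1.87 and 2.84 with doxycycline, and its part was not tested. *PSMB9*, listed at 0 in its 3 uninduced libraries, was 1.26, 0.95 and 2.24 with doxycycline, below the 5.02 to 6.74 of cells without KO. *PSMB8* was 0.68, 1.33 and 1.99, against 3.42 to 4.16, and *TAP1* was 0.46, 0.42 and 0.95, against 2.26 to 2.45. The *TAP1* rise (0.42 ± 0.13) was lost without library 57 (0.358) or 60 (0.249) and with quantile normalization (0.0241), and *PDIA3* (0.70 ± 0.23) was lost without library 56, 57 or 58. *TAPBP* rose from 2.37, 2.26 and 1.30 to 3.92, 4.38 and 4.68 (2.35 ± 0.28, limma adjusted *P* = 2.74e-06), without overlap.

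With doxycycline, 7 of 9 members differed between STING KO and no KO in H82, against 39.2% of genes. *PSMB9* fell by 4.19 ± 0.37 relative to cells without KO, *PSMB8* by 2.34 ± 0.26, *TAP1* by 1.75 ± 0.13, *TAP2* by 1.53 ± 0.23 and *ERAP1* by 0.71 ± 0.25. *CALR* (0.98 ± 0.26) and *PDIA3* (0.75 ± 0.23) were higher, and *TAPBP* was not called (-0.06 ± 0.28, 95% confidence interval -0.65 to 0.53). The count of 7 is in part set by the filter, which *PSMB8*, *PSMB9* and *TAP1* met only through induced groups without STING KO. The *PDIA3* call was lost without library 8 or 58 and that of *ERAP1* without library 7, 9, 58, 59 or 60. Without doxycycline, 4 of 9 were lower in STING KO, against 34.6%, namely *CALR* (-1.02 ± 0.26), *PSMB10* (-0.76 ± 0.24), *TAP2* (-0.73 ± 0.23) and *PDIA3* (-0.62 ± 0.23), in a comparison where the median of all genes tested was -0.111. With libraries centred on their medians *CALR* (-0.941), *PSMB10* (-0.677) and *TAP2* (-0.647) remained called and *PDIA3* (-0.537) did not. Without library 55, *CALR* alone stayed called, and without library 4, *CALR* and *TAP2*.

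The response itself differed in STING KO for 6 of 9 members in H82, against 9.26% of genes. It was smaller for *PSMB9* (-3.75 ± 0.53, limma adjusted *P* = 0.000186; not called with a pseudocount of 0.1, -2.61, adjusted *P* = 0.0709), *PSMB8* (-2.35 ± 0.37, adjusted *P* = 0.000518), *TAP1* (-1.89 ± 0.19, adjusted *P* = 4.43e-06) and *ERAP1* (-1.20 ± 0.35, adjusted *P* = 0.0382). *PSMB8*, *PSMB9* and *TAP1* met the filter only through the induced H82 groups without STING KO. The count of 6 is therefore in part set by that choice. Uninduced *PSMB8* and *TAP1* were near 0 with and without STING KO. Their differences largely reflect the induced levels and are no ratio of folds. *ERAP1* lost its call in 10 of the 12 leave-one-out fits. For *CALR* (2.00 ± 0.37) and *PDIA3* (1.37 ± 0.32) the sign turned: *CALR* rose in STING KO cells from 8.35, 8.22 and 8.03 to 9.46, 8.63 and 9.37 where it had fallen without KO. *TAPBP* (-0.08 ± 0.40) was not called.

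In COR-L88, cells with STING KO were compared under TAS1440. *TMEM173* RNA was 1.16, 1.09 and 0.96 with TAS1440 in the libraries labelled STING KO and 2.54, 2.04 and 2.03 without KO, and the neuroendocrine marker sum was 14.4 and 12.9. *NOTCH1* RNA with TAS1440 was 4.58, 2.82 and 4.93 in STING KO and 1.99, 2.79 and 2.26 without KO. The part of these 3 measures in the differences was not tested. TAS1440 still raised 8 of 9 members in STING KO cells, against 43.3% of genes. *TAP1* and *TAP2* met the filter only with the libraries of TAS1440 without KO. *PSMB8* went from 0.65, 0.75 and 0.71 to 2.50, 3.17 and 2.26 (1.94 ± 0.25, limma adjusted *P* = 2.77e-05). *PSMB9*, listed at 0 with DMSO, was 2.20, 4.56 and 3.01 with TAS1440, and *TAP1* went from 0.03, 0.09 and 0.09 to 0.88, 1.88 and 0.99 (1.18 ± 0.22, adjusted *P* = 0.000667). Library 44 was the highest of its group for *PSMB9*, *TAP1*, *TAP2* and *PSMB8*, and its *NOTCH1* RNA (2.82) was the lowest, against 4.58 and 4.93.

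Under TAS1440, 6 of 9 members were lower in STING KO than without KO and none higher, against 27.1% of genes. The fall was 3.40 ± 0.51 for *PSMB9*, 2.36 ± 0.22 for *TAP1*, 1.64 ± 0.25 for *PSMB8*, 1.52 ± 0.15 for *TAP2*, 0.96 ± 0.25 for *PSMB10* and 0.84 ± 0.16 for *ERAP1*. *TAPBP* (-0.32 ± 0.23), *CALR* (0.11 ± 0.12) and *PDIA3* (-0.23 ± 0.16) were not called, and their groups overlapped. *PSMB10* was not called without library 15, 43 or 45 (-0.714 to -0.837). With DMSO, none of 9 was called by limma, against 5.41% of genes, and 4 had an unadjusted *P* under 0.05. The response to TAS1440 differed between STING KO and no KO for *TAP1* (-2.23 ± 0.31, limma adjusted *P* = 0.00191), *TAP2* (-1.16 ± 0.21, adjusted *P* = 0.00656) and *PSMB9* (-2.60 ± 0.72, adjusted *P* = 0.042), 3 of 9 members against 7.93%. *TAP1* and *TAP2* met the filter only with the libraries of TAS1440 without KO, and *PSMB9* only with treated ones. The counts of 6 and of 3 are therefore in part set by that choice. Without library 44, 5 members were called. The *PSMB9* difference lost its call in 9 leave-one-out fits.

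The GSI was added to TAS1440 in COR-L88 to ask which part of the response needs Notch cleavage. The paper states that GSIs act on other membrane proteins too, so Notch and other targets cannot be told apart here. With TAS1440 alone all 9 members tested were above their levels under TAS1440 and GSI, against 46.7% of genes called. *TAP1* and *TAP2* met the filter only with the libraries of TAS1440 alone, so this count is in part set by that choice. *PSMB9* was 3.46, 2.56 and 2.15 with the GSI, against 6.05, 6.71 and 7.20 (3.93 ± 0.51, limma adjusted *P* = 4.25e-05). *TAP1* was 1.22, 0.75 and 0.86 against 3.72, 3.45 and 3.67 (2.67 ± 0.22, adjusted *P* = 1.91e-06). *PSMB8* was 2.65, 2.16 and 2.42 against 4.06, 4.28 and 4.53 (1.88 ± 0.25). The smallest difference was that of *CALR* (0.46 ± 0.12), and no pair of groups overlapped. *NOTCH1* RNA was higher with the GSI (6.73, 6.71 and 6.75) than with TAS1440 alone (1.99, 2.79 and 2.26), and the neuroendocrine marker sum was 17.1 and 12.9.

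Relative to DMSO, TAS1440 with GSI still left 5 of 9 members higher, against 24.5% of genes: *PSMB9* (1.93 ± 0.51), *PSMB8* (1.04 ± 0.25), *TAP1* (0.74 ± 0.22), *TAPBP* (0.69 ± 0.23) and *CALR* (0.46 ± 0.12). *PSMB10* (0.30 ± 0.25), *TAP2* (0.35 ± 0.15), *ERAP1* (0.39 ± 0.16) and *PDIA3* (0.30 ± 0.16) were not called. No pair of groups overlapped, and how often this holds over all genes is not given here. *TAP1* met the filter here only with the libraries of TAS1440 alone. Only *PSMB8* stayed called without library 12 or 16, and *TAP1* and *TAPBP* lost their calls without library 11 or 18.

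In KP1, TAS1440 raised 4 of the 7 members tested, against 36.7% of 8260 genes. *Cd14* was 0 in the 3 DMSO libraries, 1.22, 1.41 and 1.22 with TAS1440 and 0.10, 0.09 and 0.10 with TAS1440 and GSI, so it moved with the treatment, while *Ptprc*, *Lyz2* and *Pecam1* stayed at or below 0.484 in every KP1 library. Its part in these results was not tested. The KP1 table was normalized apart from the human one, so levels are not compared between them. The neuroendocrine marker sum was 18.1 with DMSO, 4.76 with TAS1440 and 18.1 with TAS1440 and GSI. *Tapbp* went from 2.77, 2.90 and 1.97 to 5.19, 4.83 and 5.70 (2.69 ± 0.34, limma adjusted *P* = 0.000233), and *Psmb10*, which fell in H82, from 1.18, 0.96 and 1.12 to 2.63, 2.68 and 2.32 (1.46 ± 0.29, adjusted *P* = 0.00334). *Psmb8* went from 1.74, 1.59 and 0.41 to 2.76, 2.53 and 2.74 (1.43 ± 0.44, adjusted *P* = 0.03) and *Tap1* from 0.99, 0.99 and 0.35 to 1.42, 1.34 and 1.45 (0.63 ± 0.19, adjusted *P* = 0.0303). None of these groups overlapped. *Psmb8*, *Psmb10*, *Tap1* and *Tap2* reached 1 in fewer than 3 DMSO libraries and so met the filter only with the treated ones. Library 3 (DMSO) was the lowest for *Psmb8*, *Tap1* and *Tap2*, and without it *Psmb8* (1.01) and *Tap1* (0.412) were not called, nor were they without library 4, 5 or 6.

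**Figure D5:**
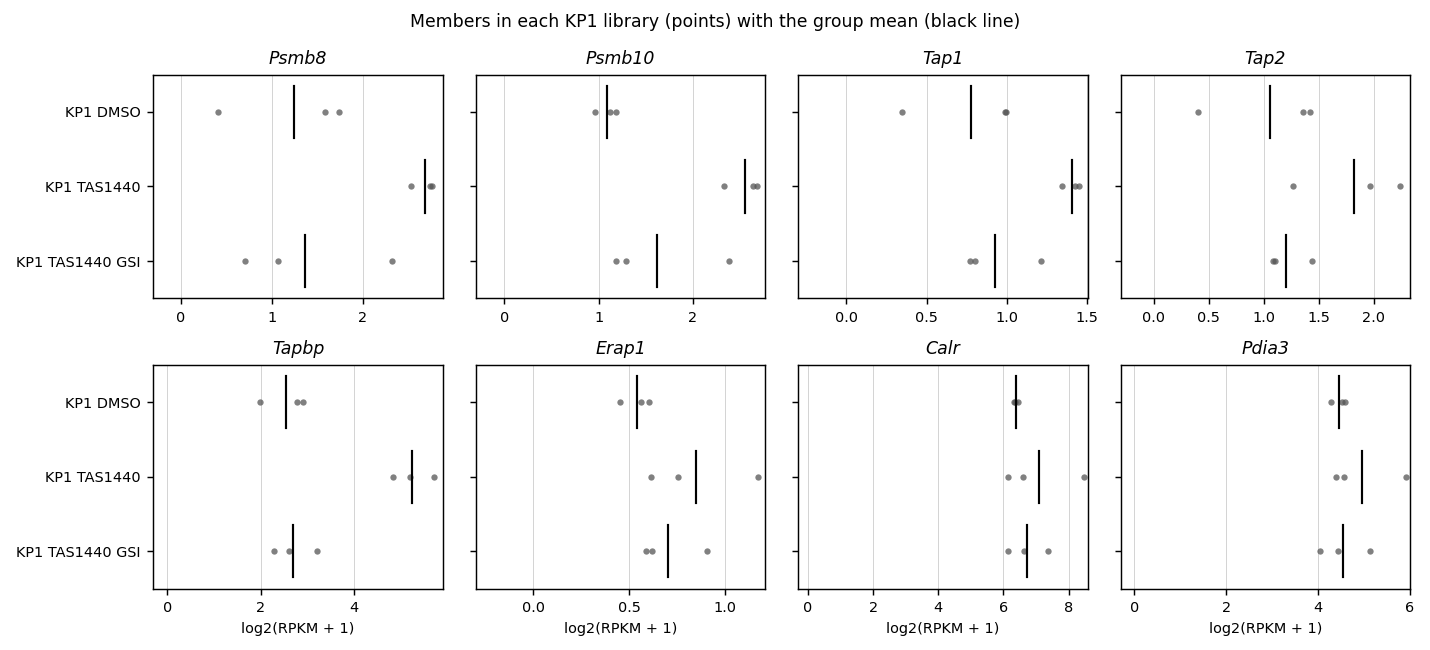
Level of each member in log2(RPKM + 1) in the 9 KP1 libraries; each point is a library and each black line a group mean. Tapbp separates TAS1440 (4.83 to 5.70) from DMSO (1.97 to 2.90) and from TAS1440 with GSI (2.27 to 3.21), whereas Calr and Pdia3 overlap.

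Against TAS1440 with GSI, 3 of 7 KP1 members were higher with TAS1440 alone, against 32.0% of genes. *Tapbp* was 2.27, 2.60 and 3.21 with the GSI (2.55 ± 0.34, limma adjusted *P* = 0.000386), and *Psmb8* (1.31 ± 0.44, adjusted *P* = 0.0475) and *Psmb10* (0.93 ± 0.29, adjusted *P* = 0.0337) were lower with it. Library 9 had the highest *Psmb8* (2.32) and *Psmb10* (2.38) of the GSI group, the latter above 1 of the 3 TAS1440 libraries, and without library 7 neither was called (0.985 and 0.711), nor without library 4, 5 or 8. *Tap1* (0.48 ± 0.19) and *Tap2* (0.62 ± 0.31) were not called. *Calr* was 6.15, 6.61 and 8.46 and *Pdia3* 4.56, 4.39 and 5.91 with TAS1440, of which library 6 held the highest, and neither was called in any KP1 comparison. TAS1440 with GSI against DMSO gave no call among the 7, against 1.97% of genes, and none had an unadjusted limma *P* under 0.05. *Erap1* was 0.45 to 1.17 in all 9 libraries and was not tested.

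Ordered by group mean over the 20 human groups, *PSMB9* ran from 7.32 ± 0.0939 (SD, n = 3) in induced H69 through 6.86 ± 0.521 in induced H82 REST KO, 6.66 ± 0.578 in COR-L88 with TAS1440, 6.52 ± 0.585 in induced H524 NOTCH1 and 5.67 ± 0.935 in induced H82 to 0 in 3 untreated KO groups. All 19 pairs of neighbours in this order overlapped. For *TAP1* the order began with induced H69 (4.39 ± 0.01), which did not overlap COR-L88 with TAS1440 (3.61 ± 0.14), and 4 of the 19 neighbouring pairs were separate. *PSMB10* was highest in COR-L88 with TAS1440 (10.10 ± 0.47) and lowest in uninduced H69 (6.79 ± 0.34), with overlap in each of the 19 pairs. *CALR* was highest in induced H69 (10.38 ± 0.02), and lowest in induced H82 REST KO (7.63 ± 0.53), with 2 separate pairs. For the other members, 2 to 4 of the 19 pairs were separate.

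The members fell into 2 sets when their 20 group means were centred on each cell line and correlated, a description over groups that share libraries and treatments. *PSMB8* and *PSMB9* (r = 0.988), *PSMB9* and *TAP1* (0.976) and *TAP1* and *TAP2* (0.967) were close, *CALR* and *PDIA3* were close (0.908), and *PSMB9* and *CALR* were not (0.002). *PSMB10* stood between, with 0.512 to *PSMB9* and 0.606 to *PDIA3*. Among the 11292 other genes expressed in all 4 lines, those most like *PSMB9* were *SLC8B1* (0.970), *HLA-B* (0.969) and *NLRC5* (0.950). Those most like *TAP1* were *NLRC5* (0.976), *HLA-B* (0.974) and *IL6R* (0.973). *ERAP1* was followed by *IL13RA1* (0.951), *CNTNAP1* (0.946) and *GBP3* (0.921), and *CALR* by *PPIB* (0.925), *RPA1* (0.823) and *TMED1* (0.813).

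Other genes of the pathway were taken as lists, to be read against the 50.3% of all genes called in H82, 32.3% in H524, 82.3% in H69 and 57.7% in COR-L88. The proteasome activator and assembly genes (*PSME1* to *PSME4* and *POMP*) gave 2 higher and 1 lower of 5 in H82, 3 higher in H524, and 5 higher in H69. In COR-L88 with TAS1440 limma called none of the 5, and 1 had an unadjusted *P* under 0.05. *PSME1*, a subunit of the activator cap, rose by 1.79 in H82, 1.53 in H524 and 1.21 in H69. Of the 11 other 20S subunits, 1 was called in H82 and 1 in H524, both lower, while 9 rose in H69 and 3 in COR-L88. The H69 count is near the 82.3% of all genes called there in either direction, where 44.1% were called higher. The 7 further folding and loading genes gave 1 higher and 2 lower in H82, 1 higher in H524, 4 higher and 2 lower in H69 and 5 higher in COR-L88. Among them *TAPBPL*, a peptide editor related to tapasin, rose by 1.86 in H82 and 1.24 in COR-L88 and fell by 1.90 in H69. Of 6 further peptidases, 4 fell in H82 and 3 in H524, while 1 rose and 3 fell in H69 and 3 rose and 1 fell in COR-L88.

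Of 12 regulators, 8 rose in H82, 6 in H524, 10 in H69 and 10 in COR-L88 with TAS1440, and the others were not called. Of all genes tested, 50.3%, 32.3%, 82.3% and 57.7% were called there in either direction, and 25.4%, 17.9%, 44.1% and 31.1% were called higher. The H69 count of calls is near the share called in either direction. *NLRC5*, the transactivator of class I genes, rose by 0.87 in H82, 1.11 in H524, 2.64 in H69 and 1.70 in COR-L88. *IRF1*, an interferon-responsive transcription factor, rose by 2.40 in H82, 3.20 in H524 and 1.52 in COR-L88 but was not called in H69 (0.29). *B2M*, the light chain of class I molecules, rose by 2.50, 2.16, 2.78 and 3.63 in H82, H524, H69 and COR-L88. With *B2M* included, 4 of 5 class I genes tested rose in H82, 4 of 4 in H524, 5 of 5 in H69 and 4 of 4 in COR-L88. With STING KO in COR-L88 the TAS1440 response was smaller for *B2M* (-1.65) and *NLRC5* (-1.18), and in H82 the doxycycline response was smaller for *NLRC5* (-0.63) and *IRF1* (-1.14). Of all genes, 7.93% and 9.26% were called in these comparisons in COR-L88 and H82. How many of the listed genes were called is not given here, so these are single genes and no trait of the lists. In KP1 with TAS1440, 3 of 9 regulators rose and 1 fell, and of 5 further peptidases 1 rose and 1 fell. There 2 of 5 activator and assembly genes, 3 of 11 other 20S subunits, 1 of 7 further folding genes and 2 of 3 class I genes rose, where 36.7% of all KP1 genes were called in either direction.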

How the data were processed

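Bulk RNA-Seq of 60 human libraries and 9 KP1 libraries was analysed, with 3 libraries in each of 23 groups named by the labels. Libraries were prepared with a stranded mRNA kit. Per the study's methods and the submitters' processing notes, the authors trimmed reads with Cutadapt, aligned them with STAR to hg19 or mm10, estimated expression with RSEM and normalized by TMM in edgeR; versions are not given in the sources used here. The deposited log2 values are log2(RPKM + 1) per gene, in a human table and a KP1 table normalized apart. Counts were not used here, so the depth behind each value is known only in relative terms, from the spacing of the lowest values.

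The values were tested as deposited with limma 3.58.1 (R 4.3.3), with a variance trend, 1 mean per group and 1 fit per cell line, and with a joint fit of H82, H524 and H69 for differences between lines. Genes with log2 values of at least 1 in at least 3 libraries were kept, and *P* values were adjusted by Benjamini-Hochberg over all genes kept, with a call at 0.05. The members, the pathway lists and the comparisons were chosen with earlier results of these data known. All members were named in the text. Like genes were ranked by Pearson's r over 20 group means centred on the mean of each line. On simulated data with 200 changed genes, the fits recovered 87% to 99% of genes changed by 2 on the log2 scale and 34% to 90% of those changed by 1. The simulation used normal noise and changed only genes with a mean log2 value above 2. Its recovery therefore does not apply to genes at or near 0 without treatment. Alternatives were no filter, a pseudocount of 0.1, quantile or median scaling, no variance trend, a fit of the compared groups alone, a minimum log2 fold change of 1 and leaving out each library. Parental H69 cells as the control were added after seeing the data. Some genes are not reported here and were left out of the counts and sums over lists.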

Additional observations from a re-analysis of the deposited data

Results flagged for a closer look

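Responses that differed between cell lines or genotypes by a test of the difference itself (limma, adjusted over all genes) were found for 27 gene and comparison pairs, to be read against the share of all genes called in each comparison. Each value is the difference of 2 log2 fold changes on the log2(RPKM + 1) scale, and no cause was tested.

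Between H82 REST KO and H82 without KO, the doxycycline response was larger in REST KO for *PSMB9* (1.62), *PSMB10* (1.54) and *TAP1* (0.68), 3 of 9 members against 16.6% of genes. Between H82 STING KO and no KO, it was lower in STING KO for *PSMB8* (-2.35), *PSMB9* (-3.75), *TAP1* (-1.89) and *ERAP1* (-1.20) and higher for *CALR* (2.00) and *PDIA3* (1.37), 6 of 9 against 9.26%. *PSMB8*, *PSMB9* and *TAP1* met the H82 filter only through induced groups without STING KO, so these counts are in part set by that choice. *PSMB8* and *TAP1* were near 0 without doxycycline in each genotype. The *PSMB9* difference ran against uninduced libraries at 0 and was not called with a pseudocount of 0.1 (-2.61, limma adjusted *P* = 0.0709). *NOTCH1* RNA with doxycycline was higher in the KO cells than without KO, and its part in these differences was not tested.

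In H524, the NOTCH1 response was above the REST response for *TAPBP* (2.26), *ERAP1* (1.90) and *TAP2* (1.49), 3 of 9 against 19.1%. In COR-L88, the TAS1440 response was smaller in STING KO for *PSMB9* (-2.60), *TAP1* (-2.23) and *TAP2* (-1.16), 3 of 9 against 7.93%. *TAP1* and *TAP2* met the filter only with the libraries of TAS1440 without KO, and *PSMB9* only with treated ones. This count is therefore in part set by that choice. *NOTCH1* RNA with TAS1440 was higher in the STING KO cells, and its part was not tested.

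Against H82, the NOTCH1 response of H524 was smaller for *PSMB8* (-1.57) and higher for *PSMB10* (1.12) and *PDIA3* (0.79), 3 of 10 against 29.5% of genes, near the background. That of H69 was higher for *PSMB8* (1.11), *PSMB9* (1.87), *PSMB10* (2.94), *TAP1* (2.03), *TAP2* (2.29), *ERAP2* (1.55), *CALR* (2.62) and *PDIA3* (1.84) and smaller for *TAPBP* (-1.38), 9 of 10 against 59.3%. *PSMB8*, *TAP1* and *ERAP2* were at or near 0 in the uninduced cells of both lines. The uninduced H69 cells of this comparison differed from parental cells in *NEUROD1*, and with parental cells as the control *PSMB8* and *PSMB9* no longer differed from H82 past the threshold.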

How the results depend on the processing

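Of 143 calls of a member in a comparison, 89 held under every alternative in which the gene was tested. Of 2022 alternative values, 241 lost the call while none changed sign. Alternatives in which a gene did not meet the filter were not counted. In the fit of the compared groups alone, 126 calls held and 8 were lost, and the others were not tested. No paired analysis was possible because the library numbers of the labels run on through the series and the groups compared share none. Requiring a log2 fold change of at least 1 left 3 of 6 members called for the STING KO response in H82, 1 of 4 and 1 of 2 for REST KO against no KO with and without doxycycline, 4 of 7 and 1 of 4 for STING KO against no KO with and without it, 1 of 2 for uninduced H524 NOTCH1 cells against parental, 1 of 4 for uninduced H69 cells against parental, 2 of 5 for TAS1440 with GSI against DMSO and 5 of 8 for TAS1440 in STING KO COR-L88. Fitting only the compared groups gave 3 for the STING KO response in H82, 2 and 4 for REST KO against no KO with and without doxycycline, 0 for uninduced H524 NOTCH1 cells and 2 for uninduced H69 cells against parental. *PSMB8*, *PSMB9* and *TAP1* did not meet the filter in the first of these fits, nor did *PSMB8* and *TAP1* in the last.

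A pseudocount of 0.1 gave 2 members for REST KO against no KO with doxycycline, 4 for uninduced H524 NOTCH1 cells, 3 for STING KO against no KO with DMSO in COR-L88 (0 as reported), 1 for the difference of the TAS1440 responses and 2 for TAS1440 in KP1. It also ended the *PSMB9* difference between STING KO and no KO in H82 (-2.61, adjusted *P* = 0.0709). Quantile normalization gave 1 for REST KO and 2 for STING KO against no KO in H82 without doxycycline, and median-centred libraries gave 1 for STING KO against no KO with DMSO in COR-L88. Without a filter, 3 members were called for TAS1440 with GSI against DMSO in COR-L88, 2 for TAS1440 in KP1 and 1 for TAS1440 against TAS1440 with GSI in KP1. Leaving out 1 library at a time gave 2 to 7 members for REST KO against no KO with doxycycline, 1 to 2 and 1 to 3 for REST KO and STING KO against no KO without it, 2 to 5 for the difference of the REST KO response, 1 to 2 for REST in H524, 1 to 3 for uninduced H524 NOTCH1 cells, 1 to 4 for TAS1440 with GSI against DMSO and 2 to 5 for the difference of the TAS1440 responses in COR-L88, 2 to 4 and 1 to 4 for TAS1440 against DMSO and against TAS1440 with GSI in KP1, and 1 to 5 for H524 against H82. Apart from members that no longer met the filter, the causes of these changes were not tested. Depth is not known in reads, which limits statements on genes at or near 0.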
